A study of Homo sapiens with 4 samples.

Results

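POLG encodes the catalytic subunit of the DNA polymerase that copies the mitochondrial genome. It was examined here together with 8 nuclear genes that replicate, transcribe and maintain that genome: POLG2, TWNK, SSBP1, POLRMT, TFAM, TFB1M, TFB2M and LONP1. The 9 genes were taken by their GENCODE 29 symbols from a table of 28274 genes, and all 9 had a row. The set was selected on measured values of these same libraries, in which POLG stood out between FYB1 knockdown and control. The differences of its members are therefore given as a description, without a test.

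RNA was sequenced from 2 control libraries and 2 FYB1 knockdown libraries of J-gammal, a human cell line. The controls are labelled NC and the knockdown libraries are labelled sh-FYB1. No other treatment and no genotype is named in these titles. Whether the controls carried a construct, and whether both knockdown libraries carried 1 hairpin, was not stated in the labels. Separate cultures are named for no library, so a p-value here rests on differences between libraries that may be technical replicates. With 2 libraries against 2, an exact permutation test of a single gene cannot give a two-sided p under 0.333.

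Mitochondrial DNA is a small circular genome kept in many copies per cell and packed into nucleoids. It encodes subunits of the respiratory chain and the RNAs of the mitochondrial ribosome, while every protein that copies or transcribes it comes from nuclear genes. The helicase Twinkle opens the duplex, the mitochondrial single-stranded DNA-binding protein coats the exposed strand, and polymerase gamma, POLG with its accessory subunit POLG2, synthesizes the new strand. The mitochondrial RNA polymerase starts transcription with TFAM and TFB2M, and it also makes the primers for replication. Inherited defects of POLG, POLG2 and TWNK cause depletion or deletions of mitochondrial DNA.

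The deposited values are FPKM, that is reads scaled to merged exon length and to a library total, and they gave back 16693113 to 20251864 whole reads per library. The totals implied by the values were 16648900 and 16789000 in controls 1 and 2, under their 17597678 and 17216663 reads. In knockdown libraries 1 and 2 they were 18436600 and 20480500, above their 16693113 and 20251864 reads. How these totals were set was not stated. FYB1, the target of the knockdown, had values of 17.6 and 20.1 FPKM in the 2 controls, against 6.18 and 4.53 FPKM in knockdown libraries 1 and 2. The 11 T cell markers, all detected, summed to 1512.5 and 1406.3 FPKM in the controls and to 1117.7 and 1370.8 FPKM in the knockdown libraries. The 5 myeloid markers summed to 0.28 to 0.44 FPKM. Among B cell markers, MS4A1 reached at most 0.02 FPKM, while CD79A stood at 24.5 and 21.2 FPKM in the controls and at 11.1 and 15.8 FPKM in the knockdown libraries. The T cell sum and CD79A were thus lowest in knockdown library 1, and their part in the results was not tested. In bulk RNA, fewer cells of a type and less RNA per cell cannot be told apart.

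Promoter sequences were read first for what the genes share, since NRF1, a nuclear regulator of respiratory genes, is known to act at many genes of this set. RefSeq promoter windows (GRCh38.p14) run from 250 bases before to 50 after a transcription start, and 8 of the 9 genes had one, with 11 windows in all. Both strands were searched. The NRF1 word CGCANGCG was found in 6 of the 8 genes, POLG2, POLRMT, TFAM, TFB1M, TFB2M and LONP1, and in 10.0% of all 35116 windows. The stretches below are shown for these 6 genes on the strand of the gene, 5′ to 3′, with the word in capitals.
TFB2M: aaggctccgctgttCGCATGCGcaggctct
TFB1M: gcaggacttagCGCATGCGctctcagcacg
TFAM: acgctctcccgCGCCTGCGccaattccgcc
POLG2: cacgctcacctccgttgCGCCTGCGccgtg
POLRMT: ggcggcgcgggCGCATGCGcaggcgcgggc
LONP1: ctgaagccctgCGCATGCGcatcaatgagt
They lie at chr1:246566262-246566291 (minus strand), chr6:155314597-155314626 (minus), chr10:58385337-58385366 (plus), chr17:64497055-64497084 (minus), chr19:633542-633571 (minus) and chr19:5720633-5720662 (minus). Counted from the start, the first base of the word lies at -16, -131, -62, -13, -23 and -199, in that order. TFAM and POLG2 carry the word on the opposite strand, so the capitals show its reverse complement. POLRMT holds another, overlapping word 6 bases further on. The windows of POLG and SSBP1 did not hold these letters.

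The other words searched were spread unevenly over the 8 genes. The SP1 word GGGCGG was in all 8 and in 45.0% of all windows, and for POLG it was the single one of the 5 words found. The ETS and GABPA word CCGGAAGT was in SSBP1 and POLRMT and in 4.14% of all windows. The YY1 word AAGATGG was in SSBP1 and in 5.84% of windows, and the E-box CACGTG, a word of MYC and USF, was in LONP1 and in 7.26%. The POLG stretches with the SP1 word are shown because POLG differed most between the groups.
POLG at -203: aaacgtcacctCCGCCCaccagctagctcg
POLG at -88: tctccccccgcGGGCGGaccgctccattgg
They lie at chr15:89335009-89335038 and chr15:89334894-89334923, both on the minus strand, and the first shows the reverse complement of the word. A match is a description of letters and not a bound site.

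POLG (ENSG00000140521) was the most abundant of the 9 transcripts in the controls and differed most between the groups. It lies at chr15:89305198-89334861 on the minus strand in hg38, with 5980 bases of merged exon in 24 parts. Its level was 135.0 FPKM in control 1 and 154.2 in control 2, against 61.2 FPKM in knockdown library 1 and 72.3 in knockdown library 2. These values rest on 13439, 15485, 6750 and 8854 reads in that order. Both knockdown libraries lay under both controls, and the gap between the groups was wider than the gap inside either. The mean went from 144.6 ± 13.6 to 66.8 ± 7.83 FPKM (SD, n = 2 each), 0.462 of the control mean. Differences are given on the log2(FPKM + 1) scale, which makes those of low genes look smaller. For POLG the difference between knockdown and control was -1.11 ± 0.15 (SE). From the recovered reads it was -1.12 ± 0.15 by limma-voom. Ordered from the lowest difference upward, POLG ranked 59 among the 13172 genes tested, those whose mean reached 1 FPKM, and 138 by the limma-voom difference.

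The members are given beside the background of all 13172 genes tested. The knockdown mean was under the control mean for 8 of the 9 members and for 54.2% of all genes tested. Both knockdown values lay under both control values for 7 members, all but TFAM and TFB2M, and for 34.6% of all genes. The reverse held for 1 member, TFAM, and for 26.0% of all genes. The median difference of the 9 members was -0.34 on the log2(FPKM + 1) scale, beside -0.03 over all genes tested. Since the members were chosen on this contrast, nothing is read from these counts.

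**Figure D1:**
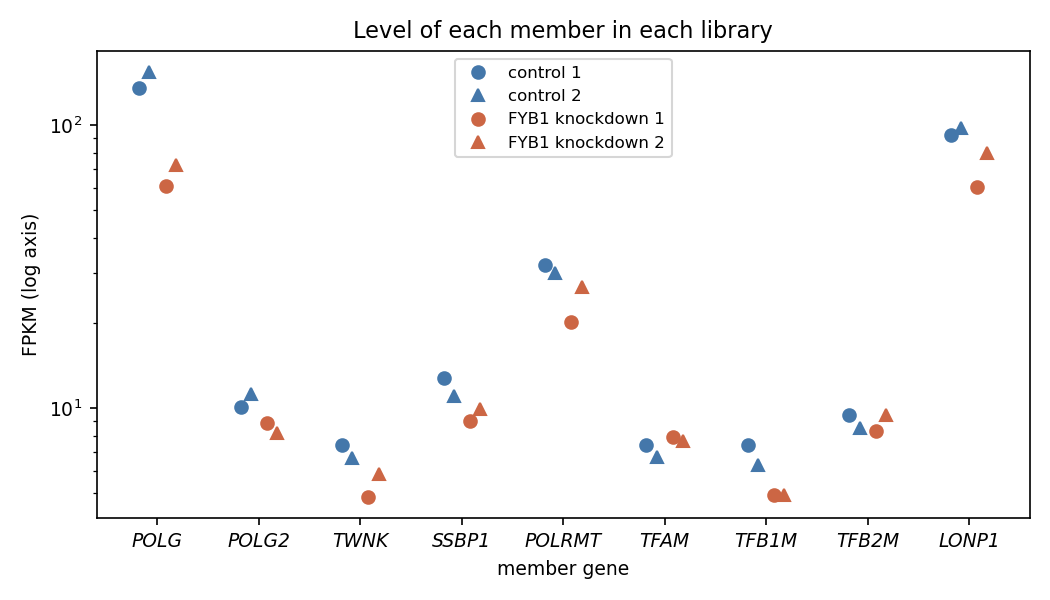
FPKM of the 9 genes on a log axis, 1 symbol per library, with controls in blue and knockdown libraries in orange. POLG stands at 135.0 and 154.2 FPKM in the controls against 61.2 and 72.3 FPKM after knockdown, while the groups overlap for TFB2M and the knockdown libraries lie above the controls for TFAM.

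POLG2 encodes the accessory subunit that binds POLG as a dimer and holds it on the DNA template. The gene (ENSG00000256525, chr17:64477785-64497036, minus strand) stood at 10.1 and 11.2 FPKM in the controls and at 8.87 and 8.16 FPKM in the knockdown libraries. Both knockdown values lay under both controls, by a narrow gap beside that of POLG, and counting error is larger here because each value rests on 554 to 639 reads. The mean went from 10.7 ± 0.81 to 8.51 ± 0.50 FPKM (SD, n = 2 each), a log2 difference of -0.29 ± 0.10 (SE). The ratio of POLG to POLG2 transcripts was 13.4 and 13.7 in the controls, against 6.90 and 8.86 after knockdown. The 2 subunits were lower by unequal amounts. Since POLG was chosen on this contrast, its ratios to other members, here and below, largely restate its difference. Nothing is read from them.

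TWNK encodes Twinkle, the replicative helicase of mitochondria. It (ENSG00000107815, chr10:100987367-100994401, plus strand) stood at 7.43 and 6.67 FPKM in the controls and at 4.87 and 5.85 FPKM in the knockdown libraries, from 371 to 511 reads. Knockdown library 1 was the lowest and the groups did not overlap, with a log2 difference of -0.34 ± 0.12. The ratio of POLG to TWNK was 18.2 and 23.1 in the controls, against 12.6 and 12.4 after knockdown.

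SSBP1 encodes the mitochondrial single-stranded DNA-binding protein. It (ENSG00000106028, chr7:141738321-141787922, plus strand) stood at 12.7 and 11.03 FPKM in the controls and at 9.04 and 9.92 FPKM in the knockdown libraries. The groups did not overlap, and the distance from control 2 to knockdown library 2 was smaller than the distance between the controls. The log2 difference was -0.30 ± 0.11. TWNK, SSBP1 and POLG2 thus had knockdown means of 0.760, 0.797 and 0.799 of the control mean.

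POLRMT encodes the single-subunit RNA polymerase of mitochondria. It (ENSG00000099821, chr19:617224-633604, minus strand) stood at 32.0 and 30.2 FPKM in the controls and at 20.1 and 26.9 FPKM in the knockdown libraries. The knockdown libraries were far apart, at -0.60 and -0.20 from the control mean on the log2(FPKM + 1) scale, and the mean difference was -0.40 ± 0.16. Knockdown library 2 lay closer to the control mean than to knockdown library 1.

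TFAM packs mitochondrial DNA into nucleoids and bends it at promoters, and it was the one member with a higher mean. It (ENSG00000108064, chr10:58385022-58399221, plus strand) stood at 7.42 and 6.73 FPKM in the controls and at 7.92 and 7.66 FPKM in the knockdown libraries, from 633 to 880 reads. The knockdown values lay above both controls, but their distance from control 1 was smaller than the distance between the controls. The log2 difference was 0.12 ± 0.10. The ratio of TFAM to POLRMT was 0.232 and 0.223 in the controls, against 0.394 and 0.285 after knockdown.

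TFB1M and TFB2M are related proteins of which TFB2M melts promoter DNA for transcription, while TFB1M methylates the small ribosomal RNA. TFB1M (ENSG00000029639, chr6:155257509-155314493, minus strand) stood at 7.42 and 6.29 FPKM in the controls and at 4.92 and 4.94 FPKM in the knockdown libraries. These knockdown values were nearly equal and under both controls, with a log2 difference of -0.40 ± 0.11. TFB2M (ENSG00000162851, chr1:246540560-246566324, minus strand) stood at 9.43 and 8.51 FPKM in the controls and at 8.34 and 9.49 FPKM in the knockdown libraries. Its groups overlapped fully, with a log2 difference of -0.01 ± 0.11. The ratio of TFB1M to TFB2M was 0.787 and 0.739 in the controls, against 0.590 and 0.521 after knockdown.

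LONP1 encodes the matrix protease that degrades damaged proteins and TFAM not bound to DNA. It (ENSG00000196365, chr19:5691834-5720572, minus strand) stood at 92.4 and 97.6 FPKM in the controls and at 60.7 and 79.8 FPKM in the knockdown libraries. Its knockdown libraries differed from the control mean by -0.64 and -0.25, with a mean log2 difference of -0.44 ± 0.17. As for POLRMT, knockdown library 1 was the lower of the pair. The ratio of POLG to LONP1 was 1.46 and 1.58 in the controls, against 1.01 and 0.906 after knockdown.

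**Figure D2:**
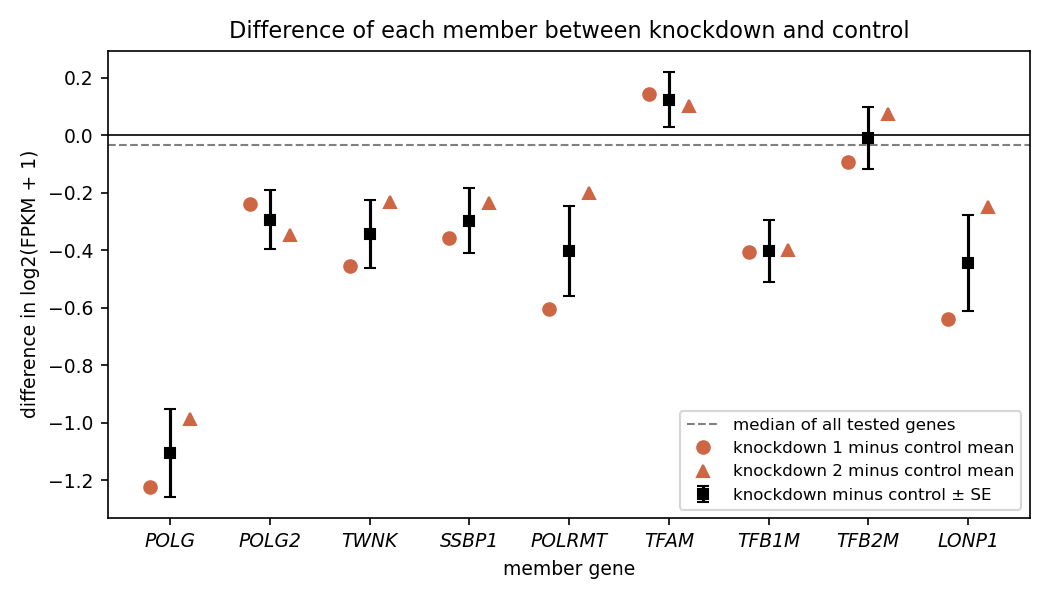
Difference in log2(FPKM + 1) between knockdown and control for each gene. Squares with bars are the difference of group means ± SE (2 libraries each), circles and triangles are knockdown libraries 1 and 2 minus the control mean, and the dashed line is the median of all tested genes at -0.03. POLG lies at -1.11, away from the other members, which span -0.44 to 0.12.

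By mean control FPKM the order of the members was POLG, LONP1, POLRMT, SSBP1, POLG2, TFB2M, TFAM, TWNK and TFB1M. Neighbours overlapped for SSBP1 and POLG2 and among TFAM, TWNK and TFB1M, whose control values ran together from 6.29 to 7.43 FPKM. In the knockdown libraries POLG and LONP1 overlapped, with means of 66.8 and 70.3 FPKM. POLG made up 43.0% and 46.4% of the FPKM of all 9 members in the controls, against 32.9% and 32.1% after knockdown.

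These levels depend on the length by which reads are divided. The deposited values use all merged exons of a gene, which for SSBP1 are 4988 bases beside 989 bases in its longest coding transcript. Per base of that transcript the SSBP1 mean went from 59.95 to 47.8 FPKM between control and knockdown, and SSBP1 moved from the fourth to the third place. The POLG mean was then 192.2 FPKM in control and 88.7 FPKM in knockdown, and POLG was still first in the controls. TFAM, whose longest coding transcript nearly fills its merged exons, was last in the controls with 7.33 FPKM. The ratio between groups is the same on either length.

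**Figure D3:**
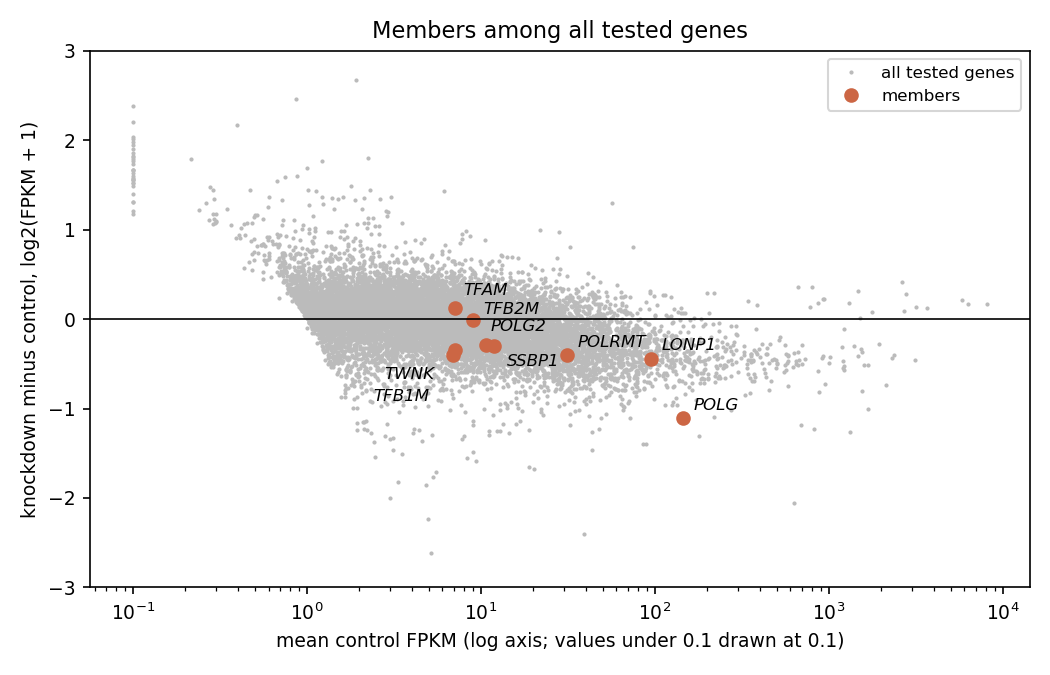
Difference between knockdown and control on the log2(FPKM + 1) scale against the mean control FPKM (log axis) for all 13172 tested genes, with the 9 members in orange. POLG lies at 144.6 FPKM and -1.11, while the other members lie in the dense part of the cloud. The vertical axis ends at 3 and -3, and 1 gene lies outside it.

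Some members share exon bases with a neighbour on the other strand, and strand use in counting was not stated. POLG shares 458 bases, 7.66% of its exon length, with FANCI, a gene of DNA crosslink repair. FANCI held 1869 and 1894 reads in the controls, against 2842 and 2791 after knockdown, and its mean was 14.5 FPKM in control and 18.7 FPKM in knockdown (log2 difference 0.34 ± 0.11, SE). TWNK shares 149 bases with MRPL43, a protein of the mitochondrial ribosome, which held 1330 and 1324 reads in the controls, against 631 and 845 after knockdown. The mean of MRPL43 was 22.2 FPKM in control and 10.6 FPKM in knockdown (limma-voom log2 difference -1.08, adjusted p = 0.00266, and limma-trend log2 difference -1.01, adjusted p = 0.0588). TFB1M shares 215 bases with TIAM2, which held 17 to 38 reads, and LONP1 shares 43 bases with RPL36, which held 10322 to 16967 reads. How the reads in these shared bases were assigned was not tested.

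The transcripts were also read for the word TCACAGT, which an earlier scan of the same libraries had picked out among genes with lower levels in the knockdown. Of the 9 members 3 carried it in their longest coding transcript, each once and in the coding part. Of the 10561 coding genes tested, 25.4% carried it anywhere in that transcript, and 12.2% in the coding part. The 3 places are shown with the word in capitals because POLG, the member with the largest difference, is one of them.
POLG: ctgcaaggaagTCACAGTggaagaagtgg
POLG2: gagtattctctTCACAGTtttggttactg
TWNK: ttccaggatggTCACAGTtgcctgcgggc
The words lie in exon 20 of 23 of POLG (chr15:89319092-89319098, minus strand), in the last of 8 exons of POLG2 (chr17:64477959-64477965, minus) and in exon 1 of 5 of TWNK (chr10:100988432-100988438, plus). Their log2 differences were -1.11, -0.29 and -0.34. The 6 members without the word ran from -0.44 for LONP1 to 0.12 for TFAM, and POLG2 and TWNK lay within that range. The word and the members were both picked on values of these libraries, so nothing is read from this.

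Genes with a pattern like that of POLG were sought among 7201 protein-coding genes whose mean reached 5 FPKM, by the Euclidean distance over the 4 libraries of log2(FPKM + 1) centred on each gene's mean. The nearest was BHLHE40, a circadian and stress-responsive transcription factor, at 15.9 and 17.7 FPKM in the controls and at 6.25 and 7.95 FPKM in the knockdown libraries (distance 0.067). MOCS1, an enzyme of molybdenum cofactor synthesis, followed at 31.4 and 33.1 against 12.9 and 14.3 FPKM (distance 0.135). PPP2R5B, a regulatory subunit of protein phosphatase 2A, was the third at 27.1 and 28.9 against 12.4 and 15.2 FPKM (distance 0.150). With 4 libraries in 2 groups, such likeness mostly reflects the size of the group difference. None of the other 8 members was among the 3.

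The wider pathway was followed in 6 lists of 116 genes, of which 112 were tested. Counts here are read beside those of all 13172 genes tested. By limma-trend 0 passed an adjusted p of 0.05, beside 0.205% of all genes. An unadjusted p under 0.05 was reached by 30 (25 lower, 5 higher), beside 23.4% of all genes. That share was not split by direction over all genes, so nothing is read from the 25 and 5. By limma-voom on recovered reads 14 were called, beside 7.74% of all genes, 13 lower (all genes 5.80%) and 1 higher (all genes 1.94%). The median difference of the lists was -0.10, beside -0.03 over all genes, with 71 genes lower and 41 higher, while 54.2% of all genes were lower. Of the 14 calls, 1 remained without control 1, 1 without knockdown library 1, 5 without control 2 and all 14 without knockdown library 2. Scaling each library by its summed reads shifted all genes upward, so that 57 genes of the lists were lower and 55 higher. Relative to the median of all genes the list median was -0.06 as reported, -0.08 under that scaling and -0.02 under quantile normalization.

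The enzymes and carriers that supply nucleotides to mitochondria had 16 of 19 tested genes lower, with a median of -0.23. By limma-voom 4 passed and were lower, and none was higher. The median was -0.14 under quantile normalization, -0.09 under scaling by summed reads and -0.37 without knockdown library 2, with 14 of the 19 lower in each. It was -0.16 without knockdown library 1, with 15 of the 19 lower. NT5M, a mitochondrial deoxynucleotidase, went from 33.8 and 34.3 FPKM in the controls to 16.6 and 22.5 FPKM in the knockdown libraries (log2 difference -0.81, adjusted p = 0.0169 by limma-voom). NME4, a nucleoside diphosphate kinase of the mitochondrial membranes, went from 40.5 and 37.6 to 20.3 and 28.2 FPKM (adjusted p = 0.0276 by limma-voom). AK4, an adenylate kinase of the matrix, went from 14.9 to 10.96 FPKM in the mean, and SLC25A5, an ADP/ATP carrier, from 337.2 to 231.8 FPKM (adjusted p = 0.0464 and 0.0494 by limma-voom). The values of NT5M and NME4 were lowest in knockdown library 1, as for POLG. The share of all genes lowest in that library was not counted.

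Proteins listed for the nucleoid or the mitochondrial membranes had 14 of 18 genes lower, with a median of -0.22, and 5 passed by limma-voom, all lower. The median was -0.10 under quantile normalization, -0.09 under scaling by summed reads and -0.13 without knockdown library 1, with 12, 13 and 16 of the 18 lower. C1QBP, a matrix protein that binds RNA, went from 77.4 ± 5.53 to 51.5 ± 5.58 FPKM (SD, n = 2 each; adjusted p = 0.0274 by limma-voom). PHB, a prohibitin of the inner membrane, went from 20.9 to 12.9 FPKM, SHMT2, the matrix serine hydroxymethyltransferase, from 77.3 to 50.6 FPKM, and TUFM, the elongation factor of mitochondrial translation, from 130.9 to 88.0 FPKM. Their adjusted p by limma-voom was 0.0280, 0.0339 and 0.0348. The fifth was MFN2, a GTPase of membrane fusion, named to complete the count after its values were seen, with means of 22.4 FPKM in control and 16.0 FPKM in knockdown (adjusted p = 0.0354 by limma-voom).

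Other genes of mitochondrial DNA replication and repair were split, with 10 of 19 lower, a median of -0.10 and 1 call by limma-voom. That gene was NTHL1, a glycosylase of base excision repair, at 18.8 and 16.1 FPKM in the controls and at 8.59 and 12.96 FPKM in the knockdown libraries (adjusted p = 0.0397). Relative to the median of all genes the list median was -0.06 as reported, -0.05 under scaling by summed reads, 0.02 under quantile normalization and 0.04 with the length and GC trend removed, so its side of that median depended on the processing.

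The genes of mitochondrial transcription and RNA processing had 18 of 26 lower, with a median of -0.07 and no call by limma-trend or limma-voom, while the unadjusted p of 2 genes was under 0.05 in the former. Relative to the median of all genes the list median was -0.04 as reported and under scaling by summed reads, -0.05 under quantile normalization and -0.06 with the length and GC trend removed, where 20 of 26 were lower. HSD17B10, a subunit of mitochondrial ribonuclease P, had means of 48.3 ± 4.46 FPKM in control and 65.0 ± 12.4 FPKM in knockdown (SD, n = 2 each), a log2 difference of 0.41 ± 0.17. DHX30, an RNA helicase, stood at 26.5 and 23.3 FPKM, with a log2 difference of -0.18 ± 0.11 that was 0.007 with quantile normalization.

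Among mitochondrial proteases 8 of 13 were lower, with a median of -0.05. With the length and GC trend removed 11 of 13 were lower, with a median of -0.16, and under quantile normalization 6 of 13, with a median of 0.002. CLPP, the proteolytic subunit of the other large matrix protease, went from 79.9 ± 5.91 to 52.4 ± 11.9 FPKM (SD, n = 2 each) and was the 1 call by limma-voom (adjusted p = 0.0357). Its per-library values of 84.1, 75.7, 44.0 and 60.8 FPKM, in controls 1 and 2 and knockdown libraries 1 and 2, had knockdown library 1 lowest, as did those of LONP1.

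The regulators of mitochondrial biogenesis went the other way in count, with 12 of 17 higher and a median of 0.19, and 12 or 13 were higher under quantile normalization and under scaling by summed reads. The median was 0.30 under scaling by summed reads, 0.08 with the length and GC trend removed and 0.11 without knockdown library 1. By limma-voom 2 were called lower and 1 higher. MYC, a transcription factor that drives cell growth, went from 42.1 and 37.7 FPKM to 21.7 and 24.4 FPKM (log2 difference -0.79, adjusted p = 0.00802 by limma-voom). YY1, a zinc finger factor, went from 24.9 to 18.5 FPKM in the mean (adjusted p = 0.0494), and GABPB2, a partner of the ETS factor GABPA, from 1.81 to 2.81 FPKM (adjusted p = 0.0326), both by limma-voom. NRF1 and SP1 are named for their promoter words, after their values were seen. NRF1 stood at 8.999 and 8.62 FPKM in the controls and at 7.77 and 8.79 FPKM in the knockdown libraries, and SP1 at 18.5 and 19.0 against 22.9 and 20.4 FPKM. The NRF1 groups overlapped.

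**Figure D4:**
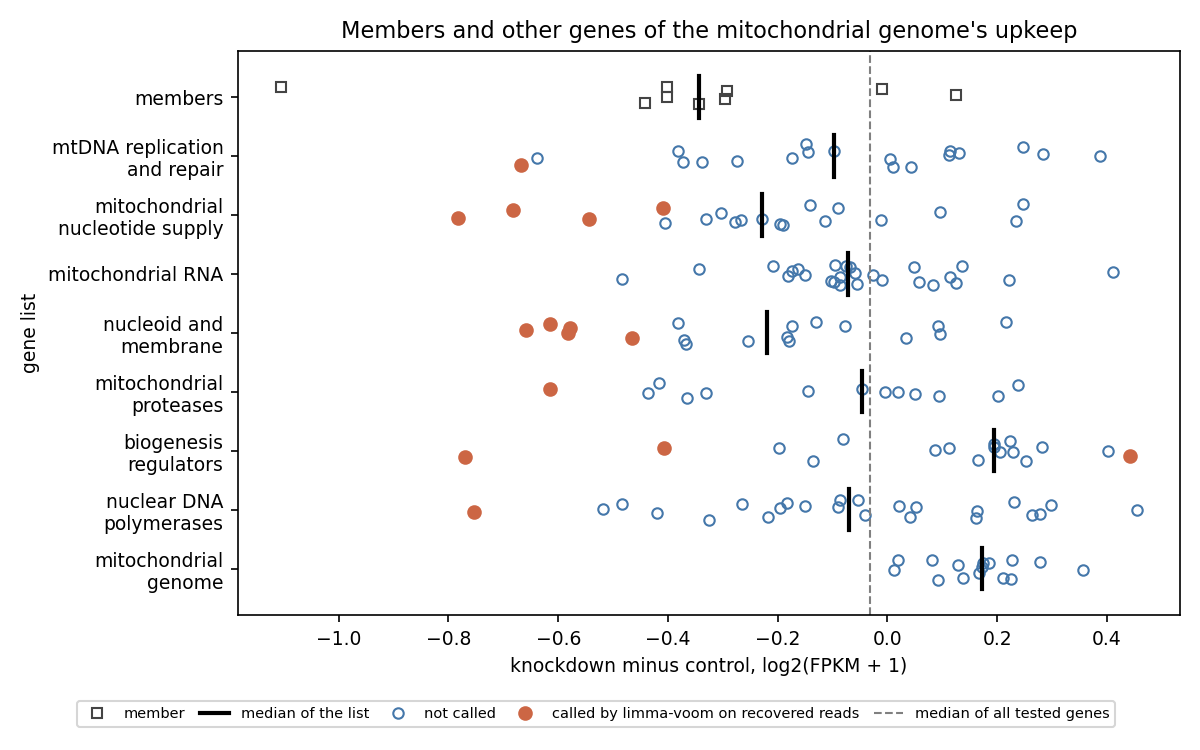
Difference between knockdown and control on the log2(FPKM + 1) scale for the 9 members, the 6 pathway lists, the nuclear DNA polymerases and the mitochondrial genome, 1 symbol per gene, with vertical bars at the median of each list and a dashed line at the median of all tested genes (-0.03). Filled circles were called by limma-voom on recovered reads, and members carry no call. The list medians run from -0.23 for nucleotide supply to 0.19 for the regulators, beside -0.34 for the members, and POLG lies at -1.11.

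The mitochondrial genome is what these proteins copy and transcribe. Its transcripts had a higher mean in the knockdown libraries for 15 of 15 genes, while 54.2% of all genes tested had a lower one. Their median difference was 0.17, beside -0.03 over all genes. By limma-trend and limma-voom 0 passed, and the unadjusted p of limma-trend was under 0.05 for 0 of the 15. MT-CO1, a subunit of cytochrome c oxidase, stood at 6412 and 6131 FPKM in the controls and at 6693 and 7453 FPKM in the knockdown libraries. MT-RNR2, the large ribosomal RNA, named after its values were seen, stood at 6126 and 5535 against 6419 and 7077 FPKM. The groups did not overlap for 8 of the 15, all higher, beside 26.0% of all genes tested. Without knockdown library 2 the median was 0.04, and 10 of the 15 were higher. It was 0.26 without knockdown library 1, with 15 of the 15 higher. Under quantile normalization 1 was lower, 12 were counted as higher and the rest had no difference. Of the 12, MT-CO1 and MT-CO2 had a difference of 1.8e-15, which is rounding and not a direction. In that setting genes of the same rank in every library get the same value, so for such genes no difference could show. The median of the 15 was 0.23 there, beside 0.006 over all genes. The amount of mitochondrial DNA was not measured.

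**Figure D5:**
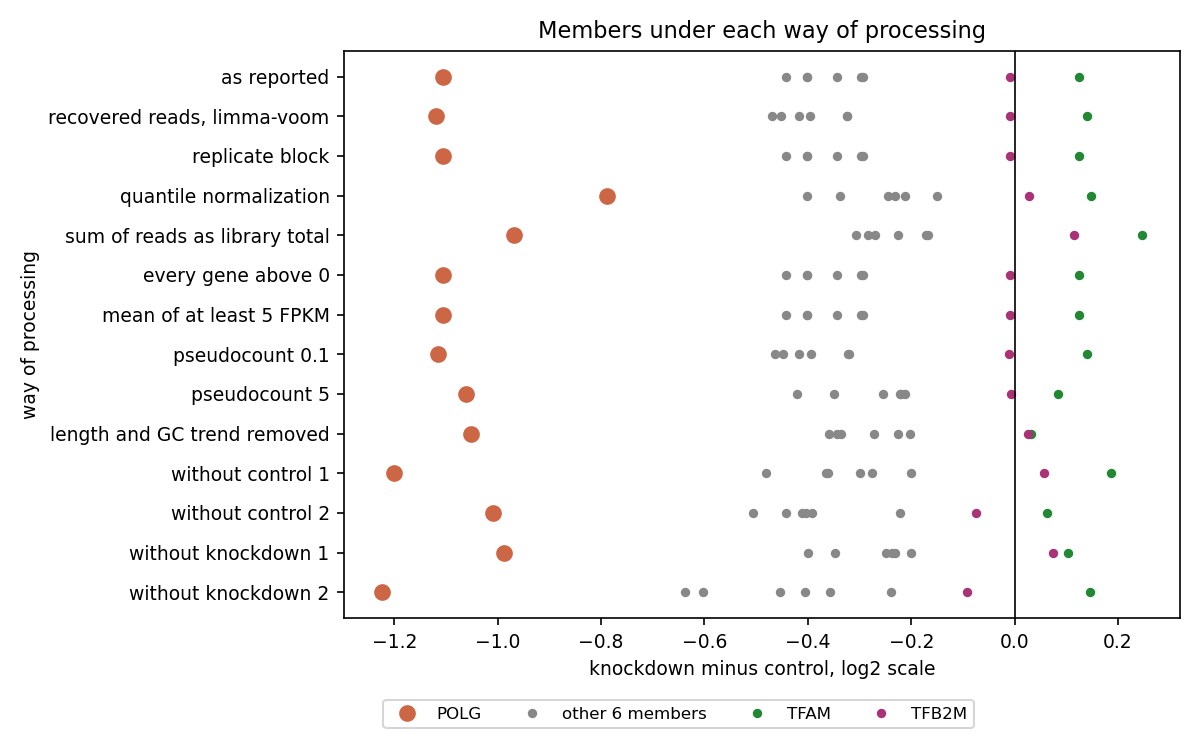
Difference between knockdown and control on the log2 scale for the 9 members (horizontal) under the values as reported and 13 other ways of processing (vertical), 3 of which change the test and leave the difference as it was. POLG runs from -1.22 to -0.79 and stays below every other member, TFAM stays above 0, and TFB2M lies on both sides of 0.

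Of 13 other ways of processing, 3 leave the difference of the means as it was by construction (a replicate block and both other filters on low values). Across the other 10, POLG stayed between -1.22 and -0.79 on the log2 scale, and the 6 other lower members stayed under 0. TFAM ran from 0.03 to 0.25, above 0 in all 10. TFB2M ran from -0.09 to 0.11 and was under 0 in 5 and above 0 in 5, so its sign depended on the processing. All 10 reuse values of the same libraries, so a sign kept across them is a description and not further support. Under scaling by summed reads the median of all genes moved from -0.03 to 0.08, and relative to it POLG lay at -1.05 and the median of the 9 members at -0.30.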

How the data were processed

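The J-gammal cell line gave 4 RNA libraries, 2 controls and 2 with FYB1 knockdown, grouped by their titles. The authors deposited 1 FPKM value per gene and library, without a unit in the file header; the unit follows from the values. Each value times the merged GENCODE 29 exon length was a whole number of reads for 100% of genes within a tolerance of 0.001. Reads were aligned with HISAT2 2.0.5 to hg38, per the submitters' processing notes. The counting program was not given in the sources used here, nor were the annotation and the strand setting.

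Differences are from limma-trend (limma 3.58.1, R 4.3.3) with log2(FPKM + 1) as the response (pseudocount 1), for the 13172 genes whose mean reached 1 FPKM, adjusted by Benjamini-Hochberg at 0.05. An alternative applied limma-voom to the recovered reads and the library totals implied by the deposited values. The code was tested on simulated data. Members and gene lists were chosen with earlier results of these data known. The named genes are the 9 members and, from each list, all genes called by limma-trend, up to 4 called by limma-voom with the lowest p and otherwise the 2 with the highest mean, and 3 genes nearest to POLG. Motifs were searched in RefSeq promoter windows of 300 bases. Alternatives covered library totals, filters, pseudocounts, quantile normalization, length and GC content, a replicate block and each library left out. Genes of 4 lists without a tested row were those under the mean of 1 FPKM.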

Additional observations from a re-analysis of the deposited data

How the results depend on the processing

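The count of genes called by limma-trend, 27, depended on the processing. It was 1019 by limma-voom on recovered reads, 45 with quantile normalization, 76 under scaling by summed reads, 181 for genes whose mean reached 5 FPKM, 159 with the length and GC trend removed and 0 with every gene above 0, where 3938 had an unadjusted p under 0.05. Without 1 library it ran from 0 to 406, with 0 without knockdown library 1 and without knockdown library 2 (2205 and 4841 genes with an unadjusted p under 0.05). By limma-voom it ran from 103 without knockdown library 1 to 3877 without knockdown library 2. The call of FYB1 (adjusted p = 0.0398 by limma-trend) ended without knockdown library 1 (0.203) and library 2 (0.0555), where its difference of -1.65 was -1.84 and -1.46, and with every gene above 0 (0.264). The count of pathway genes called, 0, was 14 by limma-voom (1 to 44 without 1 library), 1 for genes whose mean reached 5 FPKM and 1 with the length and GC trend removed. The median difference of the members, -0.34, was -0.23 with quantile normalization, -0.22 under scaling by summed reads and -0.22 with a pseudocount of 5, and ran from -0.41 to -0.24 without 1 library. The POLG difference, -1.11, was -0.79 with quantile normalization. DHX30 reversed to 0.0073 with quantile normalization. The replicate block gave 781 genes and 5 pathway genes. Replicate numbers did not pair the libraries (correlation of -0.207 between the number differences of the groups), and a crossed pairing, added after seeing the data, gave 1910 genes. Other causes were not tested. The values of TWNK, TFB1M and TFB2M rest on 248 to 511 reads per library, which limits their precision.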

Other observations

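The nuclear DNA polymerases and the replication protein A subunits, 24 tested of 25 listed, served as a comparison for POLG. Of these 14 had a lower and 10 a higher knockdown mean, with a median difference of -0.07 on the log2(FPKM + 1) scale beside -1.11 for POLG and -0.03 for all genes tested. Relative to the median of all genes the list median was -0.04 as reported, -0.03 under scaling by summed reads and 0.04 under quantile normalization. By limma-trend 0 passed, with 6 at an unadjusted p under 0.05, and by limma-voom on recovered reads 1 passed. That gene was POLE4, a small histone-fold subunit of polymerase epsilon, at 8.66 and 6.81 FPKM in the controls and at 3.48 and 4.93 FPKM in the knockdown libraries (log2 difference -0.88, adjusted p = 0.0316 by limma-voom). The differences of the 24 genes ran from -0.75 to 0.45, so POLG lay outside their range, a description since POLG was chosen for its difference.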
